A study of Mus musculus with 4 samples.

Results

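The transcriptome of hair cells (HCs) from the cochlea was compared with that of HCs from the vestibular organs of newborn mice, gene by gene. Of the 4 RNA-seq libraries in the series, 2 entered this comparison, 1 from cochlear HCs and 1 from vestibular HCs. The other 2 held the surrounding epithelial cells of the same organs, called ENSCs in the sample labels, and served as a reference. All cells came from postnatal day 1 *Atoh1/nGFP* mice on a C57BL/6 background, in which a nuclear green fluorescent protein (GFP) under *Atoh1* control marks HCs. Every population was therefore transgenic, untreated and of the same age. HCs were sorted as GFP-positive cells that carried the epithelial surface protein CD326, and ENSCs as CD326-positive cells without GFP. Per the study's methods, inner ears of 4 to 8 mice were pooled for a replicate. Each population was present as 1 column of values, called a library here. The design text speaks of triplicates, and whether a column is 1 library or a pool of several is not given in the sources used here, so no difference below has a replicate check, and no test was made. The bulk libraries mix all HCs of an organ, and more cells of an HC subtype cannot be told apart from more RNA per cell.

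HCs turn mechanical movement into electrical signals. A bundle of actin-filled stereocilia on the apical surface opens transduction channels when it is deflected, and a ribbon synapse at the base releases glutamate onto afferent neurons. Beside the bundle stands the kinocilium, a true cilium with a microtubule axoneme. Mammalian cochlear HCs lose it as they mature, whereas vestibular HCs keep it. Cochlear inner and outer HCs lie under the tectorial membrane and respond to sound, and the type I and type II HCs of the utricle, saccule and cristae lie under otolithic membranes or cupulae and respond to head movement.

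The deposited table held 12814 genes. Each value is a quantile-normalized read count with a floor of 20, called the signal here. It is not divided by gene length, so signals were compared between libraries and not between genes. All 4 columns had the same sum of 7830343 and the same median of 120, which leaves the sequencing depth unknown. From their order against the other libraries, the lowest signals of a library appeared to be ties spread over a short range, up to 24.25 in cochlear HCs, 30.5 in vestibular HCs, 22.75 in cochlear ENSCs and 20 in vestibular ENSCs. This range was inferred from the values, whereas the study's methods place the floor after the normalization, so the bounds rest on that inference. Where the lower HC signal fell in the range, the fold is given against its top as a lower bound ("at least"). Members of the comparison were the 5621 genes whose higher HC signal reached 200. The lowest higher signal kept was 200, in 5 genes, and the next one left out was 199.75, in 4 genes.

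Cochlear and vestibular HCs shared most of their transcriptome, and 556 genes (9.89%) were at least 3-fold apart. A gene was counted as different when its signals were at least 3-fold apart. Of the 5621 genes, 240 (4.27%) had the higher signal in cochlear HCs by that measure and 316 (5.62%) had it in vestibular HCs. The smallest fold counted was 3, for *Fam20b*, and the largest left out was 2.9991, for *Skiv2l* (genes named only for their place at the threshold, after their values were seen). The log2 signals of both libraries correlated across the 5621 genes with a Pearson r of 0.758 and a Spearman rho of 0.777, a description over genes that are not independent. Over all genes with unequal signals, 49.9% were higher in cochlear HCs, and the median over the whole table of the cochlear to vestibular log2 ratio was 0. Lower signals were inside the tied range for 33 of the cochlear and 40 of the vestibular genes.

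**Figure D1:**
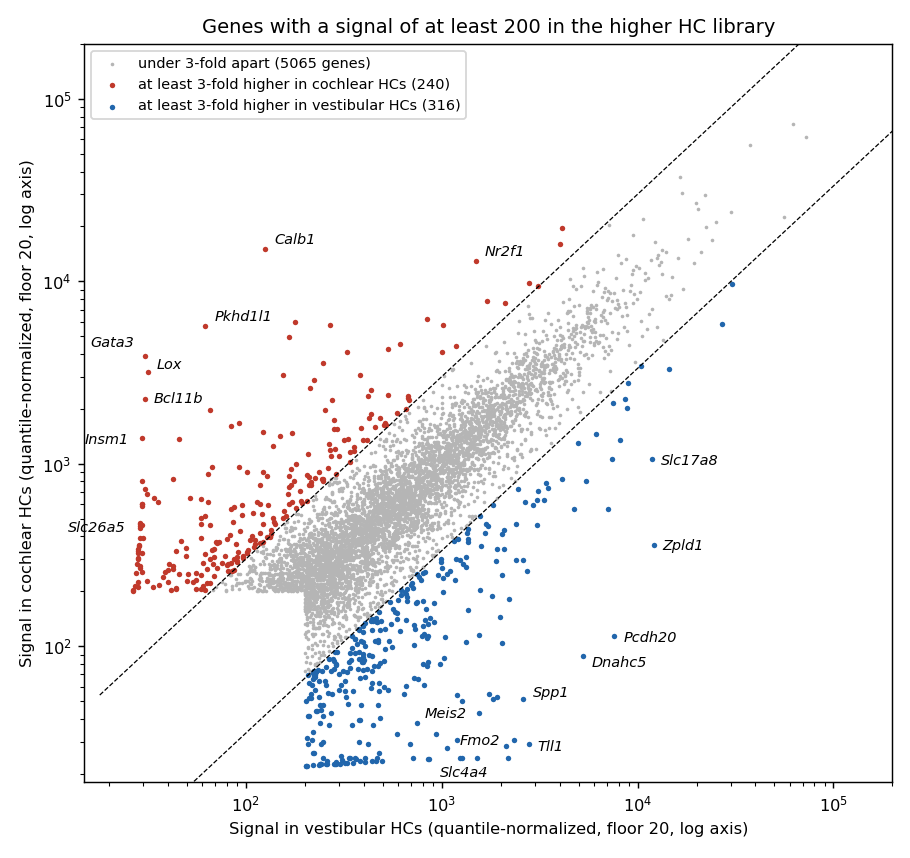
Signal of each gene in cochlear HCs (vertical log axis) against vestibular HCs (horizontal log axis) for the 5621 genes whose higher signal reached 200, 1 library per axis. Dashed lines mark a 3-fold ratio; 240 genes lie above the upper line and 316 below the lower one, and the labelled genes lie far from the diagonal cloud.

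The labels were checked against known HC genes. All 10 genes fixed for this purpose were in the table, and 0 of 10 were 3-fold apart. With no minimum signal, as here, 540 of all 12814 genes were 3-fold higher in cochlear and 652 in vestibular HCs. *Pou4f3*, an HC transcription factor, had a signal of 2199 in cochlear against 2489.5 in vestibular HCs. *Myo6*, an unconventional myosin of HCs, had 29920.2 and 21968. *Otof*, the calcium sensor of the ribbon synapse, had 1565.5 and 3806. In ENSCs these genes were far lower, with a summed signal of the 10 genes of 1879.5 and 1467 against 37419.8 and 32616 in cochlear and vestibular HCs.

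Markers of other cell types were checked in both HC libraries. The 12 supporting cell genes summed to 11585 in cochlear and 11276 in vestibular HCs. Of them, 3 were 3-fold higher in cochlear HCs and 1 in vestibular HCs. Marker counts used no minimum signal, and without it 540 and 652 of all 12814 genes were past 3-fold. Of the 3, *Fgfr3* was under the minimum, with 154.25 in cochlear against 25.75 in vestibular HCs, the latter in the tied range. In ENSCs they summed to 87063.5 and 11972.5, of which *Epyc* alone made 62028.5 and 1119. The sum in vestibular HCs was close to that in vestibular ENSCs. The 4 neuronal genes in the table summed to 4454 and 4672.5, almost all of it from the neurofilament genes *Nefl* and *Nefm*. The 5 glial genes summed to 1001 and 575. The 6 mesenchymal genes summed to 862 and 217, of which *Lum* made 728 and 30.5, and 4 of 6 lay in the tied range of each HC library. The endothelial gene *Kdr* was in the tied range in both, and the blood gene *Cd68* was at the floor. The part of such cells in the differences below was not tested.

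Genes of the motile axoneme formed the most one-sided of the lists described here. The list held 109 genes for dynein arms, radial spokes, nexin links, the central pair and their assembly factors, and 100 of them were higher in vestibular HCs against 9 in cochlear HCs, beside 50.1% of all genes. The median log2 ratio of the list was -1.19, beside 0 for all genes, and it was -1.17 with tied signals raised to the top of their range. Of the 64 members with at least 200 in the higher library, 24 (37.5%) were at least 3-fold higher in vestibular HCs and 0 in cochlear HCs, beside 5.62% and 4.27% of all genes. Vestibular HCs had the highest signal of the 4 libraries for 97 of the 109 genes, which was so for 21.4% of all genes. All 24 genes were also at least 3-fold above vestibular ENSCs, a description only, since they were counted for a high vestibular HC signal.

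Axonemal dynein heavy chains, the motor subunits that slide microtubule doublets, differed most. The table held 9 of them, and 8 were higher in vestibular HCs, with a median log2 ratio of -3.11. The 6 with a signal of at least 200 were all at least 3-fold higher there. *Dnahc5*, an outer-arm heavy chain mutated in primary ciliary dyskinesia (chr15:28133507-28401800 in mm9), had a signal of 88 in cochlear against 5255 in vestibular HCs, and of 60.5 and 21.5 in cochlear and vestibular ENSCs. It was 59.7-fold higher in vestibular than in cochlear HCs and close to the floor in the ENSCs of the same organ. *Dnahc9*, another outer-arm chain, had 53.8 in cochlear HCs, 1204 in vestibular HCs, 45.5 in cochlear ENSCs and 20 in vestibular ENSCs. *Dnahc11*, the proximal outer-arm chain, had 115.5, 1548.5, 26.8 and 428 in the same order. Vestibular HCs were the highest library for both genes, and *Dnahc11* was also above the tied range in vestibular ENSCs. Exons of *Dnahc9* overlap *Gm12296* and those of *Dnahc11* overlap *Cdca7l*, both on the opposite strand.

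The inner-arm chains went the same way. *Dnahc10* had 29.8 in cochlear against 377 in vestibular HCs, a 12.7-fold difference. *Dnahc6* had 157 and 1359, an 8.66-fold difference. Of the axoneme genes named from here on, all were chosen after their values were seen. *Dnahc7b*, also an inner-arm chain, had 60 and 506, and of the 6 genes it had the highest cochlear ENSC signal. The exception among the 9 chains was *Dnahc8*, with 95.8 in cochlear against 22.2 in vestibular HCs, below the minimum signal. Their exonic lengths run from 12359 to 15988 bases in the mm9 annotation.

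Other axonemal complexes followed with smaller ratios. *Hydin*, a protein of the central pair, had 467.5 in cochlear against 2399 in vestibular HCs. *Rsph4a*, a radial spoke head protein, had 281 and 1287. *Armc4*, which docks outer arms, had 270.5 and 1328. These 3 genes were between 4.58-fold and 5.13-fold higher in vestibular HCs. *Lrrc6* and *Spag1*, needed to assemble dynein arms in the cytoplasm, had 203 and 619, and 143 and 464, just above the threshold. *Ccdc39*, part of the molecular ruler of the axoneme, was under the threshold, with 3054.5 in cochlear against 5006 in vestibular HCs. *Foxj1*, the transcription factor of motile cilia, was below the minimum signal, with 104.5 and 136. Of the 24 genes, 22 had a higher signal in cochlear HCs than in either ENSC library. For *Dnahc5*, *Dnahc9* and *Dnahc10* that excess was under 2-fold. The share of all genes with this order was not counted, so the 22 have no background beside them and are a description only.

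**Figure D2:**
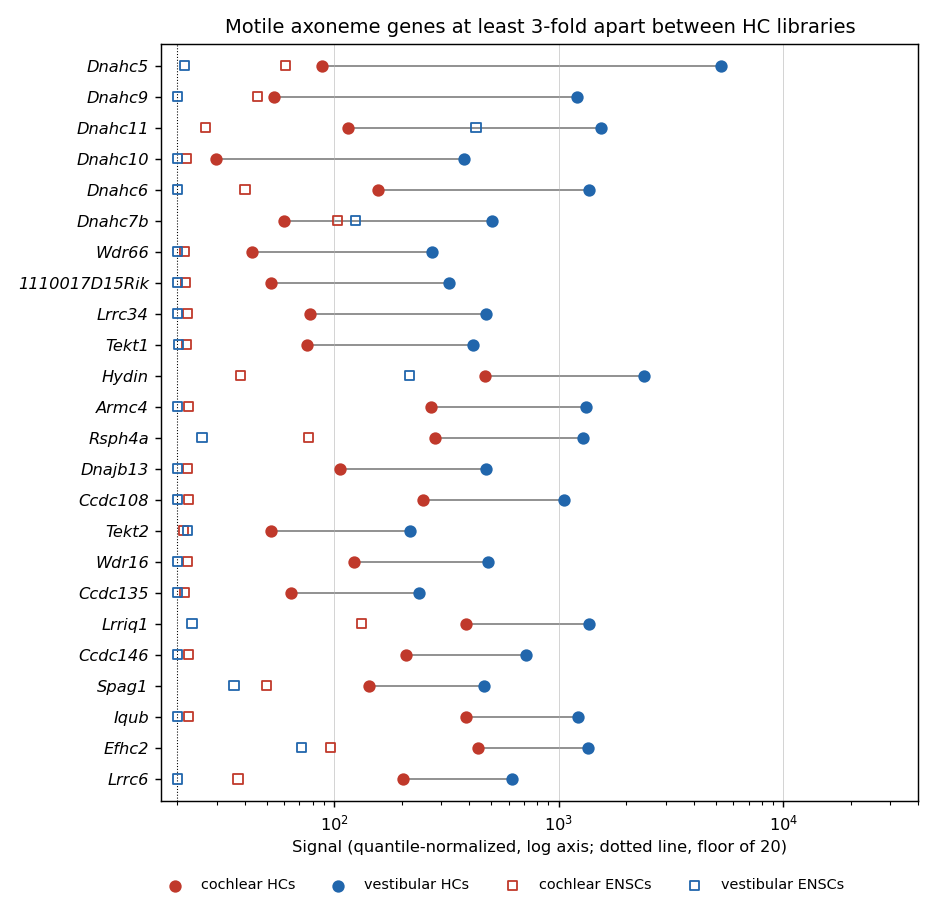
Signals of the 24 motile axoneme genes at least 3-fold apart, in all 4 libraries (log axis; dotted line, the floor of 20). Filled circles are HCs and open squares ENSCs, red for cochlea and blue for vestibular organs; a grey line joins the HC pair, and the vestibular HC circle is the rightmost mark in each row.

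The rest of the cilium differed less. The list of intraflagellar transport, BBSome, transition zone and ciliary membrane genes, which build and sort cargo into cilia of every kind, held 115 genes. Of these, 78 were higher in vestibular and 33 in cochlear HCs, and the median log2 ratio was -0.23. Of the 70 with at least 200, 3 (4.3%) were 3-fold higher in cochlear and 1 (1.4%) in vestibular HCs, at or below the share of all genes. The vestibular gene was *Tulp3*, which brings receptors into cilia, with 124.5 in cochlear against 379 in vestibular HCs. The cochlear ones were *Ift20*, the Golgi-linked subunit of intraflagellar transport, with 1639 in cochlear against 519.5 in vestibular HCs, *Gli3*, a Hedgehog effector that passes through the cilium, with 229.8 and 55.8, and *Pkhd1l1*. With a pseudocount of 100 the log2 ratios of *Tulp3* (-1.09), *Ift20* (1.49) and *Gli3* (1.08) were under 3-fold, and *Pkhd1l1* alone stayed past it. Over both cilium lists together, 42 of 218 genes with unequal signals, or 19.3%, were higher in cochlear HCs (Wilson 95% interval 14.6 to 25%, which covers the number of genes only).

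*Pkhd1l1* encodes fibrocystin-L, a large membrane protein found in the coat of stereocilia, and was listed with the ciliary membrane for its similarity to fibrocystin. Its signals were 5688 in cochlear HCs, 62.2 in vestibular HCs, 66.2 in cochlear ENSCs and 20 in vestibular ENSCs. Cochlear HCs were alone at a high signal, 91.4-fold above vestibular HCs.

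**Figure D3:**
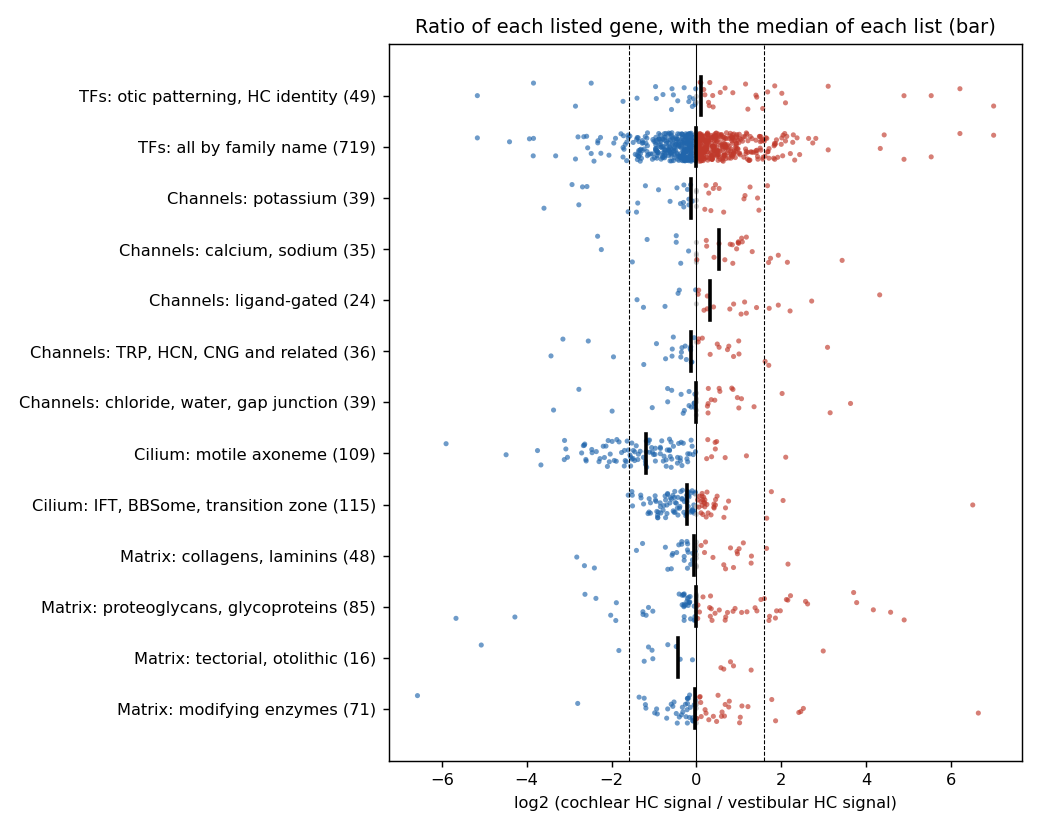
Log2 ratio of cochlear to vestibular HC signal for every listed gene of the 4 main classes (points; red higher in cochlear, blue higher in vestibular HCs, grey equal), with the median of each list as a black bar and the number of genes in parentheses. Dashed lines mark 3-fold; the motile axoneme list lies mostly to the left of 0 with a median of -1.19, and the medians of the other lists lie nearer to 0.

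The promoters of axonemal genes were read for the core of the X-box, the element bound by RFX transcription factors, because the study examined that factor family. RFX factors regulate cilium genes in many animals. The core was searched as GTTGCC on either strand (GGCAAC on the other), in the 300 bases from 250 upstream to 50 downstream of each RefSeq start site (GRCm38.p6). A gene was counted when any of its start sites held the core. It was present in 42 of 90 motile axoneme genes with a promoter (46.7%) and in 33 of 99 genes of the intraflagellar transport list (33.3%). Of all 9620 genes with a promoter it was in 15.1%. Counted by single promoters, a different unit, it was in 12.5% of 32851. Of the 219 genes with a promoter that were at least 3-fold higher in vestibular HCs it was in 16%, of the 179 cochlear ones in 10.1% and of the 4002 less than 3-fold apart in 16.2%. Within the axoneme list the ratio was alike with and without it. The median log2 ratio was -1.14 for the 42 genes with the core and -1.22 for the 48 without. Longer forms of the core, GTTGCCA and GTTGCCAT, which contain it, were in 26.7% and 11.1% of axoneme genes and in 4.79% and 1.4% of the 9620 genes. GTTGCCA was in 8.22% of the vestibular, 3.35% of the cochlear and 4.75% of the genes less than 3-fold apart, and GTTGCCAT in 4.57% (10 genes), 0.559% (1 gene) and 1.37%. GTTNCC followed by GGNAAC, with 0 to 3 bases between, was in 7.78% and 1.19%, and the looser pair GTNNCC and GGNNAC, which overlaps it, in 26.7% and 6.06%. *Rfx3*, named after its values were seen, had a signal of 5240 in cochlear against 7929.5 in vestibular HCs.

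Among the 18 axoneme genes past 3-fold with a promoter, 8 (44.4%) held the core. Upstream regions of 4 genes, picked for holding it and for the largest ratios, are shown to place the core, with both orientations in capitals. They are the 250 bases before the start site, 5′ to 3′ on the strand of the gene, from RefSeq on GRCm38.p6. *Dnahc10* lies on the plus strand (chr5:124724835-124725084), *Dnahc7b* on the plus strand (chr1:46066603-46066852), *1110017D15Rik* on the minus strand (chr4:41507765-41508014) and *Lrrc34* on the minus strand (chr3:30647819-30648068).
Dnahc10: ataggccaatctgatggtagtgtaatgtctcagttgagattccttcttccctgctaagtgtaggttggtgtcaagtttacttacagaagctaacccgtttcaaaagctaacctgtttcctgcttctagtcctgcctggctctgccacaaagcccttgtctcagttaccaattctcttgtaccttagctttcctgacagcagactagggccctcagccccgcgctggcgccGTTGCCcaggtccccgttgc
Dnahc7b: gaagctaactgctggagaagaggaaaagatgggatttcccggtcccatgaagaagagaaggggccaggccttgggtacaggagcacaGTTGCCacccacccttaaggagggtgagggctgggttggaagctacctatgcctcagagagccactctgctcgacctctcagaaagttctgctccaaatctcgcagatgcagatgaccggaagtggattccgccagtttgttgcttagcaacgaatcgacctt
1110017D15Rik: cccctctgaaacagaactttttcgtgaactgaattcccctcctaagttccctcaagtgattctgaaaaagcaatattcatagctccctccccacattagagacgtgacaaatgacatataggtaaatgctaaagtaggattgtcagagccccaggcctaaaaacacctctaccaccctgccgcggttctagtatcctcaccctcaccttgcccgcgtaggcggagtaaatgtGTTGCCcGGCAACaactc
Lrrc34: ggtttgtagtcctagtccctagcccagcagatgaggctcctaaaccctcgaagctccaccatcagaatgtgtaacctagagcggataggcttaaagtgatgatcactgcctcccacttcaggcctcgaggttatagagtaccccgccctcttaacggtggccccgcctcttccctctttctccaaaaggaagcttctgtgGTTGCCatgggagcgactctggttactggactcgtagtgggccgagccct
The core of *Dnahc10* began 20 bases before the start site, that of *Lrrc34* 50 bases and that of *Dnahc7b* 163 bases before it. Only this core was marked. The *Dnahc7b* region also holds gttgcttagcaac, an inverted repeat nearer the start site that none of the searched forms covers. *1110017D15Rik* held 2, in opposite orientations, which began 18 and 11 bases before the start site, 1 base apart. The 4 genes had vestibular HC signals of 377, 506, 325.5 and 476, against 29.8, 60, 52.5 and 78.2 in cochlear HCs. A match of letters is a description and not a bound site.

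Transcription factors held the largest cochlear ratio in the table. The list of 719 genes by family name was balanced, with 345 higher in cochlear and 324 in vestibular HCs and a median log2 ratio of 0. Of the 326 with at least 200, 22 (6.7%) were 3-fold higher in cochlear and 17 (5.2%) in vestibular HCs, beside 4.27% and 5.62% of all genes. In the shorter list of 49 factors of otic patterning and HC identity, 8 of 30 (26.7%) were 3-fold higher in cochlear and 4 of 30 (13.3%) in vestibular HCs, with a median log2 ratio of 0.10 over the 49. That list was put together with earlier results of these data known.

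*Gata3*, a zinc-finger factor required for inner ear development (chr2:9778705-9811661 in mm9), had a signal of 3920.5 in cochlear HCs, 30.5 in vestibular HCs, 5323.5 in cochlear ENSCs and 75.5 in vestibular ENSCs. Cochlear exceeded vestibular HCs at least 129-fold, and both cochlear libraries were high. The orphan nuclear receptors *Nr2f1* and *Nr2f2* shared that arrangement. *Nr2f1* had 12911.5, 1499, 13361.5 and 999.5 in the same order, and *Nr2f2* had 1961.5, 66, 3978.5 and 89.5. The HC ratios were 8.61-fold and 29.7-fold. An RNA on the opposite strand overlaps exons of *Gata3* and of *Nr2f1*, and the counting gives no strand. Exons of *Gata3* also overlap *9230102O04Rik* on the same strand.

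In contrast, *Bcl11b* and *Insm1* were high in cochlear HCs alone. *Bcl11b*, a zinc-finger factor known from T cells and neurons, had 2260.2 in cochlear HCs, 30.5 in vestibular HCs, 111.5 in cochlear ENSCs and 105 in vestibular ENSCs, a ratio of at least 74.1-fold between HCs. *Insm1*, which holds outer HCs in their fate, had 1379, 29.8, 22.8 and 20 in the same order, a ratio of at least 45.2-fold. *Zfp503*, a zinc-finger corepressor, had 5794 in cochlear against 269.5 in vestibular HCs, and lay at 524 and 813 in ENSCs. For each of the 3 genes the cochlear HC signal exceeded every other library by 3-fold or more.

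Of the 17 vestibular factors, 6 are given here. *Meis2*, a TALE homeodomain factor, had 43.2 in cochlear HCs, 1549.5 in vestibular HCs, 223 in cochlear ENSCs and 2747.5 in vestibular ENSCs. Its relative *Meis1* had 29.2, 419, 168.5 and 709.8. Both were highest in vestibular ENSCs and 35.8-fold and 14.3-fold higher in vestibular than in cochlear HCs. *Tbx3* had 37 in cochlear against 267 in vestibular HCs and 3319.8 in vestibular ENSCs, where it was far higher than in HCs. *Tbx2*, a T-box factor of inner HCs, had 109.5 and 363. *Dlx1*, a Distal-less homeodomain factor, had 23 and 352, and shares exon sequence with an antisense RNA. *Rarb*, a retinoic acid receptor, had 23 and 331. The lower signals of *Dlx1* and *Rarb* were inside the tied range of cochlear HCs, so that these ratios were at least 14.5-fold and at least 13.6-fold.

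A pair of further factors with known roles in the ear is given by values, chosen after these were seen. *Emx2*, which sets HC orientation, had 1630.2 in cochlear against 509 in vestibular HCs. *Thrb*, a thyroid hormone receptor required for hearing, had 1359 and 332. Their ratios toward the cochlea were 3.2-fold and 4.09-fold.

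**Figure D4:**
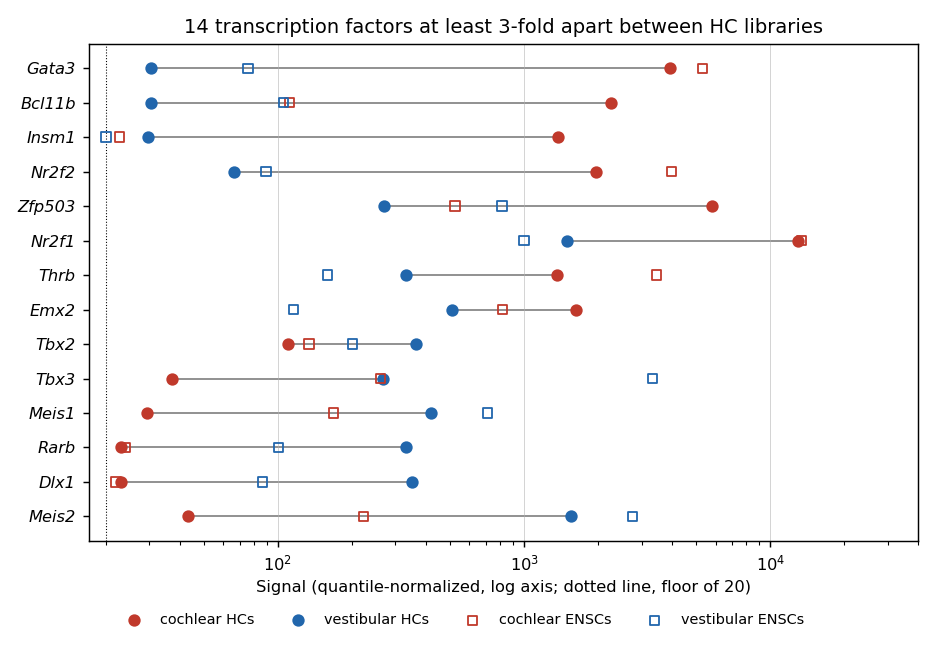
Signals of the 14 transcription factors described above that were at least 3-fold apart between HC libraries, in all 4 libraries (log axis; dotted line, the floor of 20), ordered by the ratio of cochlear to vestibular HCs. Filled circles are HCs and open squares ENSCs, red for cochlea and blue for vestibular organs; *Gata3* at the top has the widest gap toward cochlear HCs and *Meis2* at the bottom the widest toward vestibular HCs.

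Genes known to mark subtypes of HCs were looked at next. Of 11 genes listed for cochlear subtypes, 10 were in the table, with 3 at least 3-fold higher in cochlear and 2 in vestibular HCs. No minimum signal was set for this list, and without it 540 and 652 of all 12814 genes were past 3-fold. *Slc26a5*, which encodes prestin, the motor protein of outer HCs, had 455 in cochlear HCs, 29 in vestibular HCs, 22.5 in cochlear ENSCs and 20 in vestibular ENSCs. Only cochlear HCs were above the tied range, by at least 14.9-fold over vestibular HCs, and *Bcl11b* and *Insm1* were the other 2. *Slc17a8*, the vesicular glutamate transporter VGLUT3 of inner HC synapses, ran the other way, with 1058 in cochlear against 11819.8 in vestibular HCs, an 11.2-fold difference. *Chrna9* and *Chrna10*, the subunits of the efferent acetylcholine receptor, had 171 and 75.5, and 438.5 and 199.5, under the 3-fold line. *Ikzf2*, an outer HC factor, had 300 and 266.

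For vestibular subtypes, 8 of 9 listed genes were in the table and 2 were 3-fold higher in vestibular HCs. By the same rule, with no minimum signal, 652 of all 12814 genes were. *Ocm*, the calcium buffer oncomodulin, had 57.8 in cochlear HCs, 534 in vestibular HCs, 22.2 in cochlear ENSCs and 20 in vestibular ENSCs, a ratio of 9.24-fold. *Spp1*, osteopontin, had 51.5, 2615, 96.5 and 1011, a ratio of 50.8-fold, and was also present in vestibular ENSCs. The other 6 were less than 3-fold apart. *Calb2*, calretinin, had 564 and 399, *Anxa4*, a calcium-dependent membrane-binding protein, 5641.5 and 5410, and *Tnc*, tenascin-C, 11148 and 10905. *Kcna10*, a potassium channel of vestibular HCs, had 145.25 and 379, a 2.61-fold difference, and *Sox2*, a factor of type II HCs and supporting cells, had 2659.5 and 3961. *Tmc2*, the last of the 6, is given with the transduction genes.

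Calcium-binding proteins went in both directions. Of the 18 listed EF-hand genes with at least 200, 1 (5.6%) was 3-fold higher in cochlear and 4 (22.2%) in vestibular HCs, beside 4.27% and 5.62% of all genes. *Calb1*, the calcium buffer calbindin (chr4:15808411-15835211 in mm9), had 15030.5 in cochlear HCs, 126 in vestibular HCs, 4963 in cochlear ENSCs and 53 in vestibular ENSCs. The ratio between HCs, 119-fold, was the second largest, and both cochlear libraries were high. *Cabp2*, which modulates the synaptic calcium channel, had 22.5 in cochlear against 259 in vestibular HCs, and *S100b* had 23.5 and 260. Both cochlear signals were in the tied range, and these ratios were at least 10.7-fold and at least 10.7-fold. *Calm2*, a calmodulin gene, had 9696 and 30527, and the calmodulin genes encode the same protein. Its log2 ratio of -1.65 became -1.51 after correction for length and GC content, under 3-fold. With a floor of 100, *Cabp2* (-1.37) and *S100b* (-1.38) fell under 3-fold.

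Ion channels divided by family. Of 173 listed channel genes, 84 were higher in cochlear and 73 in vestibular HCs, and of the 52 with at least 200, 8 (15.4%) and 6 (11.5%) were past 3-fold, beside 4.27% and 5.62% of all genes. Potassium channels leaned to vestibular HCs, with 21 genes higher there against 14 and a median log2 ratio of -0.14, which was 0 with tied signals raised to the top of their range. *Kcnma1*, the pore of the large-conductance calcium-activated channel, had 40.2 in cochlear against 485.5 in vestibular HCs, a 12.1-fold difference. *Kcnmb2*, an auxiliary subunit of that same channel, had 1895 and 593, a ratio of 3.2-fold toward the cochlea. *Kcnj2*, an inward rectifier, had 295 and 1895. *Kcnab1*, an accessory subunit of voltage-gated channels, had 80.8 and 483. The pore and the auxiliary subunit of the large-conductance channel thus had opposite ratios.

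Calcium and sodium channels leaned to cochlear HCs, with 22 genes higher there against 8 and a median log2 ratio of 0.53 (0.25 with tied signals raised). *Scn11a*, a voltage-gated sodium channel, had 809.8 in cochlear against 249 in vestibular HCs, and lay in the tied range of cochlear ENSCs and at the floor in vestibular ENSCs. *Cacng5*, of the gamma subunit family, had 305.5 and 28.2, a ratio of at least 10.02-fold. *Cacna2d1*, an auxiliary calcium channel subunit, had 121.5 and 610.2, and was higher in both ENSC libraries. Among ligand-gated channels 17 genes were higher in cochlear and 6 in vestibular HCs, with a median log2 ratio of 0.33 (0.22 with tied signals raised), and *Gria4*, an AMPA-type glutamate receptor subunit, had 589 in cochlear against 29.5 in vestibular HCs, a ratio of at least 19.3-fold.

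The other channels included mechanosensitive and secretory ones. *Fam38b*, better known as *Piezo2*, a mechanically gated channel, had 1467 in cochlear HCs, 172 in vestibular HCs, 60.2 in cochlear ENSCs and 57.5 in vestibular ENSCs. The ratio between HCs was 8.52-fold. *Otop1*, a proton channel required for otoconia, had 22.5 in cochlear against 242 in vestibular HCs and 121 in vestibular ENSCs. *Gjb2*, the gap junction protein connexin 26, which supporting cells use, had 4084 and 329 in HCs and 4725.5 and 382 in ENSCs. *Ano1*, a calcium-activated chloride channel, had 905 and 102 in HCs and 1015.5 and 65.2 in ENSCs. For both genes the cochlear ENSC signal was above the cochlear HC signal. *Ano4*, of the same family as *Ano1*, had 82.2 in cochlear against 848.5 in vestibular HCs and lay in the tied range or at the floor in ENSCs.

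Of the 38 listed hair bundle and transduction genes with at least 200, 1 (2.6%) was 3-fold higher in each direction, beside 4.27% (cochlear) and 5.62% (vestibular) of all genes, so the list was at or below the background. *Myo3a*, a myosin of stereocilia tips, had 4545.5 in cochlear HCs, 614.5 in vestibular HCs, 68 in cochlear ENSCs and 20 in vestibular ENSCs. *Gsn*, the actin-severing protein gelsolin, had 44, 232.5, 407.5 and 169.8, and was highest in cochlear ENSCs. Its log2 ratio of -2.40 became -1.22 with a floor of 100, under 3-fold. In the tip link and transduction list 8 of 11 genes were higher in cochlear HCs and none was past 3-fold. *Tmc1* and *Tmc2*, the pore subunits of the transduction channel, had 338.5 and 502, and 376.5 and 188, in cochlear and vestibular HCs.

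At the synapse 4 (11.1%) of 36 ribbon and release genes with at least 200 were 3-fold higher in cochlear HCs and 3 (8.3%) in vestibular HCs, beside 4.27% and 5.62% of all genes. *Gad2*, which makes the transmitter GABA, had 2596 in cochlear HCs, 212.5 in vestibular HCs, 26.8 in cochlear ENSCs and 20 in vestibular ENSCs. *Rims2*, a scaffold of the active zone, had 3080 in cochlear against 383.5 in vestibular HCs, and *Syt7*, a calcium sensor of release, 2291 and 673. *Syp*, the vesicle protein synaptophysin, had 321.5 and 62. The ratios were 12.2-fold, 8.03-fold, 3.4-fold and 5.19-fold. On the vestibular side, beside *Slc17a8*, was *Cadps2*, which primes vesicles, with 822 in cochlear against 4101 in vestibular HCs.

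Matrix genes past 3-fold lay in both directions, and several of them were much higher in ENSCs than in HCs. Of 213 listed genes, 82 were higher in cochlear and 106 in vestibular HCs, a share of 43.6% on the cochlear side that was 54.4% with tied signals raised to the top of their range. Of the 69 with at least 200, 14 (20.3%) were 3-fold higher in cochlear and 8 (11.6%) in vestibular HCs, beside 4.27% and 5.62% of all genes. The ENSC signal of the same organ was at least 3-fold above the HC signal for 3 of the 14 and 3 of the 8. That order held for 5.53% (cochlear libraries) and 7.56% (vestibular libraries) of all 5621 genes. The HC signal was at least 3-fold above the ENSC signal for 6 and 3. Among all 5621 genes the shares for this reverse order were 12.9% and 21.5%. Both sets of matrix genes had been picked for a high HC signal, so these counts are a description only.

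*Lox*, lysyl oxidase, which cross-links collagen and elastin (chr18:52675723-52689521 in mm9), had 3178 in cochlear HCs, 31.8 in vestibular HCs, 533 in cochlear ENSCs and 65.2 in vestibular ENSCs. It was highest in cochlear HCs, 100.1-fold above vestibular HCs. *Crispld1*, a secreted protein, had 1363, 45.8, 393 and 56, again with cochlear HCs highest. *Tecta*, the tectorial membrane protein alpha-tectorin, had 4249, 535, 11861 and 4649, and *Epyc*, a proteoglycan of supporting cells, had 764, 210, 62028.5 and 1119. For both, cochlear ENSCs were the highest library. *Lum*, the proteoglycan lumican, had 12731 in cochlear ENSCs against 728 in cochlear HCs. *Ctgf*, a matricellular growth factor, had 1675 in cochlear against 93 in vestibular HCs and 2913.5 in cochlear ENSCs. *Lgi1*, a secreted synaptic protein, had 394 and 28.8, and *Smoc2*, a calcium-binding matricellular protein, 391.5 and 30.

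*Tll1* had the largest vestibular ratio in the table. It encodes a tolloid-like metalloprotease that cleaves matrix precursors and BMP antagonists (chr8:66493567-66684790 in mm9). Its signals were 29.2 in cochlear HCs, 2787 in vestibular HCs, 59.2 in cochlear ENSCs and 222 in vestibular ENSCs, a ratio of 95.3-fold between HCs. *Zpld1*, a zona pellucida domain protein of the cupula, had 360, 12099, 232 and 12911.5, so both vestibular libraries were alike and high. *Otoa*, otoancorin, which attaches acellular gels to supporting cells, had 61.5 and 218 in HCs and 1081 and 2121 in ENSCs. *Thsd7a*, a thrombospondin-domain protein, had 24.2 and 470.5 in HCs, and its ENSC signals of 1143 and 94.8 had the opposite order. *Fras1*, a basement membrane protein, had 62.5 and 441, and *Hs3st3a1*, which sulfates heparan chains, 48 and 334.

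Of the 84 adhesion and guidance genes with at least 200, 16 (19%) were 3-fold higher in cochlear and 11 (13.1%) in vestibular HCs, beside 4.27% and 5.62% of all genes. *Cdh1*, the epithelial cadherin, had 6003 in cochlear HCs, 178.5 in vestibular HCs, 4853 in cochlear ENSCs and 3308 in vestibular ENSCs. Vestibular HCs were the lowest library by far, 33.6-fold below cochlear HCs. *Pcdh20*, a protocadherin, had 113.5, 7597, 572 and 1552, and was 66.9-fold higher in vestibular than in cochlear HCs. *Cdh11*, a cadherin known from mesenchyme, had 461.5 in cochlear against 3066 in vestibular HCs. *Ncam1*, the neural cell adhesion molecule, had 1488 and 122, and *Cntn1*, contactin-1, 181 and 2205. The ratios of *Ncam1* and *Cntn1* were 12.2-fold and 12.2-fold, in opposite directions, and *Cntn1* was higher in both ENSC libraries than in HCs.

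Of the 25 axon guidance genes with at least 200, 8 (32%) were 3-fold higher in cochlear and 3 (12%) in vestibular HCs, against the same shares of all genes. *Robo2*, a receptor for Slit ligands, had 6189 in cochlear HCs, 845 in vestibular HCs, 1592 in cochlear ENSCs and 77 in vestibular ENSCs. *Unc5b*, a netrin receptor, had 333 in cochlear against 28.2 in vestibular HCs, a ratio of at least 10.9-fold. The semaphorins, which repel or attract axons, split between organs. *Sema5b* had 651 and 34, *Sema3d* 1422.5 and 149.5, and *Sema3c* 255.5 and 38.8, all higher in cochlear HCs. ENSC signals of *Sema3c* (3204.5 and 3445 in cochlea and vestibular organs) were far above those of HCs, and *Sema3d* had 3212 in vestibular ENSCs. *Sema6d* had 1356 and 8140, and *Sema3e* 515 and 1562.5, both higher in vestibular HCs. *Plxna4*, a semaphorin receptor, had 459 and 1719, with 10317 in vestibular ENSCs.

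Of the 80 listed signalling genes with at least 200, 7 (8.8%) were 3-fold higher in cochlear and 6 (7.5%) in vestibular HCs, beside 4.27% and 5.62% of all genes. *Lgr5*, the R-spondin receptor of the WNT pathway and a mark of cochlear supporting cells, had 898 in cochlear HCs, 123.25 in vestibular HCs, 748.5 in cochlear ENSCs and 30 in vestibular ENSCs. *Rspo3*, a ligand of that receptor family, had 24.2, 406, 548 and 1151.5. Receptor and ligand thus differed in opposite directions, by 7.28-fold and at least 16.8-fold. *Jag1*, a Notch ligand, had 7815 in cochlear against 1712.5 in vestibular HCs, and *Fstl1*, a BMP antagonist, 5779.8 and 1017. *Igf1* had 748 and 165.5 in HCs and 21968 and 4917 in ENSCs. In the retinoic acid pathway *Aldh1a3*, which makes the ligand, had 50.2 in cochlear HCs, 1267 in vestibular HCs, 87.5 in cochlear ENSCs and 5457 in vestibular ENSCs, and *Rarb*, a receptor for it, went the same way.

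Of 141 transporter genes with at least 200, 9 (6.4%) were past 3-fold in cochlear and 6 (4.3%) in vestibular HCs, beside 4.27% and 5.62% of all genes. *Slc4a4*, a sodium bicarbonate cotransporter, had 24.2 in cochlear HCs, 1267.5 in vestibular HCs, 333 in cochlear ENSCs and 417 in vestibular ENSCs. Cochlear HCs were in the tied range and the other 3 libraries above it, a ratio of at least 52.3-fold between HCs. *Slc14a1*, a urea transporter, had 684 in cochlear against 31.5 in vestibular HCs, a ratio of 21.7-fold. *Slc7a14*, an amino acid transporter family member, had 2363 and 421.5, and lay at 31.2 and 20 in ENSCs. *Slc5a3*, a myo-inositol transporter that shares exons with *Mrps6* in the annotation, had 2151 and 7511.

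A few genes of the largest ratios belonged to none of these classes. *Fmo2*, a flavin-containing monooxygenase, had 30.8 in cochlear HCs, 2336.5 in vestibular HCs, 22.8 in cochlear ENSCs and 20.8 in vestibular ENSCs. *Dclk3*, a kinase of the doublecortin family, had 24.2, 1241, 47.2 and 43.5. Both were high in vestibular HCs alone, 76-fold and at least 51.2-fold above cochlear HCs. *4833424O15Rik* had 52.8 in cochlear against 1920.5 in vestibular HCs and low signals in ENSCs. *Hhla1* had 30.8 and 1192.5 in HCs and 22.5 and 1194 in ENSCs, so that both vestibular libraries were alike. *Pole*, the catalytic subunit of a DNA polymerase, had 27.8 and 1068, and its exons overlap a gene on the opposite strand. The 5 cell cycle genes in the table had at most 50.2 in an HC library, too low to compare. On the cochlear side, *Fam40b*, now named *Strip2*, had 4940 in cochlear HCs, 167 in vestibular HCs, 74.5 in cochlear ENSCs and 20 in vestibular ENSCs.

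Whether the organ ratio of an HC gene was shared by the epithelium around it was asked with the ENSC libraries. Their values enter no HC ratio directly, but all 4 columns were normalized to 1 common distribution. Of the 240 cochlear genes, 84 (35%) also had a 3-fold or larger ratio toward the cochlea in ENSCs, and these were 16.5% of the 508 genes among the 5621 with that ENSC ratio (9.04%). Of the 316 vestibular genes, 74 (23.4%) were 3-fold higher in vestibular ENSCs, 28.7% of 258 genes (4.59%). *Gata3*, *Calb1*, *Nr2f1* and *Nr2f2* were among the shared cochlear genes and *Zpld1*, *Hhla1*, *Meis2* and *Aldh1a3* among the shared vestibular ones. Of the cochlear genes, 6 were past 3-fold toward the vestibular organs in ENSCs, beside 4.59% of all 5621 genes. Of the vestibular genes, 21 were past 3-fold toward the cochlea in ENSCs, beside 9.04%. These 27 genes made smaller shares of the 240 and 316 than those of all genes. Over the 5621 genes the HC and ENSC log2 ratios had a Pearson r of 0.290 and a Spearman rho of 0.194, a description over genes that are not independent and were normalized together.

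Cells of the own epithelium were a further reference. The HC signal was at least 3-fold above the ENSC signal of the same organ for 102 (42.5%) of the cochlear and 162 (51.3%) of the vestibular genes. The same held for 12.9% (cochlea) and 21.5% (vestibular organs) of all 5621 genes, but the counted genes had been chosen for a high signal in that HC library, so the shares are a description. The reverse, an ENSC signal at least 3-fold above the HC signal, held for 17 and 26 genes, and for 5.53% and 7.56% of all genes. *Insm1*, *Slc26a5*, *Gad2* and *Pkhd1l1* belonged to the first kind in the cochlea, and *Dnahc5*, *Fmo2*, *Slc17a8* and *Tll1* in the vestibular organs. *Epyc*, *Lum* and *Igf1* belonged to the second kind in the cochlea, and *Tbx3* and *Otoa* in the vestibular organs. Whether ENSC RNA in the HC libraries has a part in genes of the second kind was not tested.

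**Figure D5:**
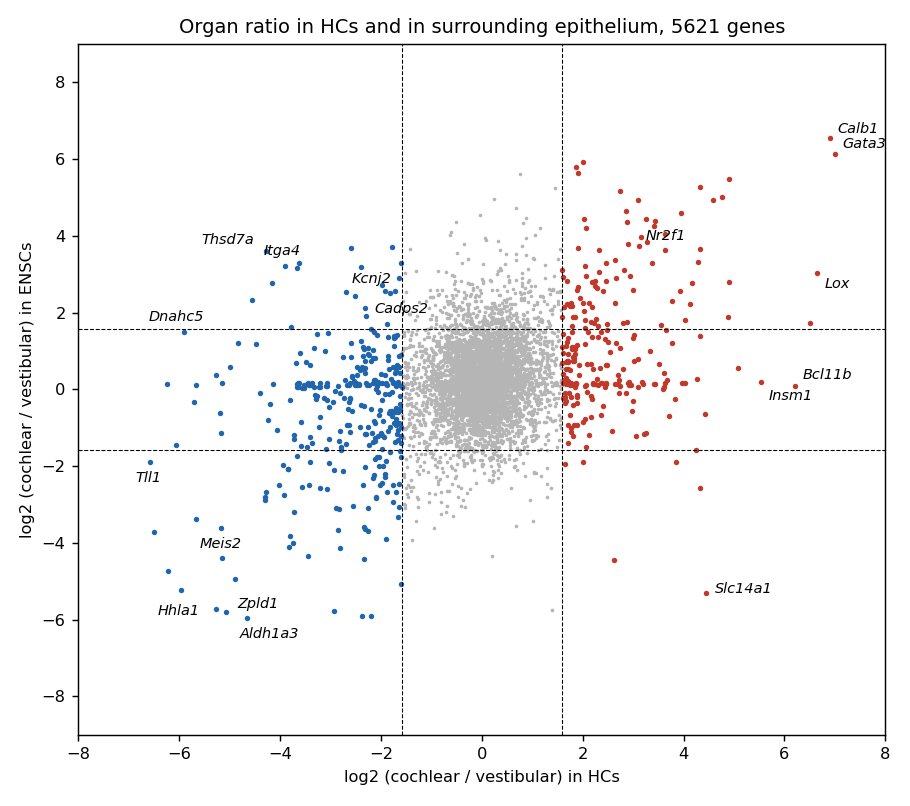
Log2 ratio of cochlear to vestibular signal in ENSCs (vertical axis) against the same ratio in HCs (horizontal axis) for 5621 genes. Red and blue points are at least 3-fold higher in cochlear and in vestibular HCs, and dashed lines mark 3-fold; *Gata3* and *Calb1* lie at the upper right, *Zpld1* and *Aldh1a3* at the lower left, and *Insm1* near the horizontal line of 0.

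Short transcripts leaned to vestibular HCs. The 139 genes under 1000 bases of exon had a median log2 ratio of -0.72, and 35 of them (25.2%) were 3-fold higher in vestibular HCs and 4 (2.88%) in cochlear HCs, beside 5.62% and 4.27% of all genes. Of 79 pseudogenes with at least 200, 31 (39.2%) were 3-fold higher in vestibular HCs and 4 (5.06%) in cochlear HCs, and 20 of the 31 were under 1000 bases. Vestibular ENSCs were above cochlear ENSCs for 29 of the 31 and above vestibular HCs for 18. Among protein-coding genes the counts were 228 and 277. Across the 9484 genes above the tied range in both libraries, the log2 ratio had a rho of 0.088 with exonic length and 0.017 with GC content.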

How the data were processed

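RNA from flow-sorted HCs and ENSCs of postnatal day 1 *Atoh1/nGFP* mice was amplified with the NuGEN Ovation system by the authors and sequenced. The authors deposited 1 normalized signal for each gene and library. Its making is described in the study's methods: reads trimmed to 50 nt were mapped to the mouse genome (mm9) by TopHat, HTSeq assigned them to ENSEMBL genes, quantile normalization followed, and values were floored at 20. Which versions, gene build release and strand option were used is not given in the sources used here. The normalization removes differences in depth and total RNA between libraries, and the depth behind a signal is unknown. The design text speaks of triplicates, whereas each population had 1 column here. Groups were taken from source names, and columns were matched by title.

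The log2 ratio of the HC columns was computed with no pseudocount (Python 3.11.15, pandas 2.3.3, numpy 2.4.6), and genes with at least 200 in the higher HC library and a ratio of at least 3 were counted. The script was tested on simulated data. The top of a tied range is the last signal before the median of the genes' highest signal elsewhere collapsed. Of 12814 identifiers, 12799 were found in the GENCODE annotation of NCBIM37 (mm9), which gave positions, exonic length, GC content and exon overlaps of at least 50 bases. For 19 genes the symbol had become a number and 221 had none, and these took the reference symbol where there was one. Promoters were matched by symbol to RefSeq on GRCm38.p6, for 9620 genes. Named genes were the 10 protein-coding genes with the largest ratio each way, up to 5 in each list and direction among genes past 3-fold, and fixed marker genes, 169 in all, some of which are not reported here. For 33 of the 169 an exon overlaps another annotated gene. Any gene named outside that rule, and the forms of the motif, were picked with the values in view. Members and lists were chosen with earlier results of these data known. Alternatives were other floors, pseudocounts, thresholds and minimums, centring, protein-coding genes only, raised tied ranges and a correction for length and GC content (local regression, span 0.3, statsmodels 0.14.6). A setting without genes at least 3-fold higher in an ENSC library was added after the data were seen.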

Additional observations from a re-analysis of the deposited data

Results flagged for a closer look

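Of the named genes, 5 had organ ratios past 3-fold in opposite directions in HCs and in ENSCs. With 1 library per population each difference between the ratios was not tested.

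*Slc14a1*, a urea transporter, had a log2 ratio of cochlear to vestibular signal of 4.44 in HCs and -5.30 in ENSCs, with signals of 684 in cochlear HCs, 31.5 in vestibular HCs, 22.5 in cochlear ENSCs and 885 in vestibular ENSCs. *Thsd7a* had -4.28 in HCs and 3.59 in ENSCs. *Itga4*, an integrin subunit, had -3.90 in HCs and 3.22 in ENSCs, from signals of 24.2, 361, 906.5 and 97.5 in the same order. *Kcnj2* had -2.68 in HCs and 2.53 in ENSCs, with 437 in cochlear and 75.5 in vestibular ENSCs. *Cadps2* had -2.32 in HCs and 2.13 in ENSCs, with 1562.5 in cochlear and 357 in vestibular ENSCs. Except for *Slc14a1*, these genes were higher in vestibular HCs and in cochlear ENSCs. Over all 5621 genes, 27 had this kind of opposition, 6 of them higher in cochlear HCs and 21 in vestibular HCs. As shares of the 240 and 316 counted genes, these lay below the 4.59% and 9.04% of all genes with those ENSC ratios.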

How the results depend on the processing

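The counts of genes past 3-fold depended on the threshold, the minimum and the larger pseudocount, in both directions alike. Against 240 cochlear and 316 vestibular genes, a pseudocount of 100 left 115 and 163, and a 5-fold threshold left 115 and 166. A 2-fold threshold gave 533 and 596. A minimum of 100 gave 393 and 495, a minimum of 500 gave 131 and 155, and no minimum gave 540 and 652. The 158 genes past 3-fold in HCs and also in ENSCs became 100 with a floor of 100, 73 with a pseudocount of 100, 382 and 70 at 2-fold and 5-fold, and 245, 88 and 303 with minimums of 100, 500 and none.

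The share of cilium genes higher in cochlear HCs, 19.3%, stayed inside its interval of 14.6 to 25% in every setting run. Pseudocounts and centring on a median of 0 cannot change such a share. For transcription factors it went from 51.6 to 55.9% with a floor of 100 and stayed inside its interval in the other settings. For ion channels it went from 53.5 to 64.3% and 65.4% with floors of 50 and 100 and to 69.2% among genes with at least 200. For matrix genes it crossed from 43.6% to 53.8% and 57.8% with these floors, to 54.4% with tied ranges raised, to 56.5% among genes with at least 200 and to 52.7% without genes 3-fold higher in an ENSC library. With a floor of 100, 17 of the 121 named genes past 3-fold fell under it. With a pseudocount of 100 it was 33, and after correction for length and GC content 2. Under the 7 settings tried 0 changed direction, but floors, pseudocounts, raised tied ranges and centring on a median of 0 cannot reverse a ratio. Only the correction for length and GC content could have done so. No paired analysis was possible because each population had 1 library. The depth is unknown, so counting error could not be given.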

Other observations

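The lists and genes in this section were chosen after their values were seen, and no explanation is offered for them. Of 24 immediate-early genes, which many cells induce within minutes of a stimulus, 18 were higher in vestibular HCs and 6 in cochlear HCs, with a median log2 ratio of -0.36. Of the 16 with at least 200, 3 were 3-fold higher in vestibular HCs and 0 in cochlear HCs, beside 5.62% and 4.27% of all genes. *Fos*, a subunit of the AP-1 factor, had 1295.5 in cochlear HCs, 4995 in vestibular HCs, 6104.5 in cochlear ENSCs and 14506 in vestibular ENSCs. *Socs3*, a feedback inhibitor of cytokine signalling, had 24, 366, 109 and 732, and *Klf4* had 139.8, 826, 299 and 2474. For these 3 genes vestibular ENSCs were the highest library, as for 19 of the 24. *Egr1*, another member, was nearly equal, with 6745.5 in cochlear against 7269 in vestibular HCs.

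Transcripts of the mitochondrial genome leaned to cochlear HCs, with 10 of 13 higher there, 1 higher in vestibular HCs and 2 equal, and a median log2 ratio of 0.86. None of the 9 with at least 200 was 3-fold apart. *mt-Nd2*, a subunit of respiratory complex I, had 21968 in cochlear against 10665 in vestibular HCs, and *mt-Co1*, a subunit of cytochrome oxidase, had 23927 and 29920.2. The 74 nuclear genes of the respiratory chain had a median log2 ratio of -0.12, and 43 of them were higher in vestibular HCs. Cytosolic ribosomal protein genes had a median of -0.14 over 85 genes, and proteasome subunits 0.02 over 37.

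*Lin28b* and *Hmga2*, which are known for high expression in immature tissues, were both higher in cochlear HCs. *Lin28b*, an RNA-binding inhibitor of let-7 microRNAs, had 966 in cochlear HCs, 92.8 in vestibular HCs, 197 in cochlear ENSCs and 20 in vestibular ENSCs. *Hmga2*, a chromatin protein and a let-7 target, had 338, 67.5, 504 and 40.8. For *Lin28b* the ratio between HCs was 10.4-fold and for *Hmga2* 5.01-fold, and cochlear ENSCs were also above vestibular ENSCs for both.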
